A study of Homo sapiens with 12 samples.

Results

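The CDK inhibitor genes, CDKN1A, CDKN1B, CDKN1C, CDKN2A, CDKN2B, CDKN2C, and CDKN2D, are 7 of the 58735 genes in the deposited count table, and they were taken by gene symbol. They were measured in TIGK, human gingival keratinocytes that telomerase had immortalized. All cells were kept at 48 mM glucose in a base medium without Arg. Arg-treated cells received 500 μM L-arginine (Arg) for 24 or 48 h, and control cells received none for the same times. Each of the 4 groups had 3 libraries, with the replicate letters A, B, and C. TIGK is a single immortalized line, so the libraries do not represent different donors. The genes were chosen because CDKN1C had already been seen to be lower with Arg at 24 h and to spread widely in the control at 48 h. The values of CDKN1C are therefore described without a test. The other 6 members were tested.

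Cyclin-dependent kinases (CDKs) drive the cell cycle when they are bound by cyclins, and the CDK inhibitors hold them back. The INK4 proteins, encoded by CDKN2A (p16INK4A), CDKN2B (p15), CDKN2C (p18), and CDKN2D (p19), bind CDK4 and CDK6 and keep cyclin D away from them. The CIP/KIP proteins, encoded by CDKN1A (p21), CDKN1B (p27), and CDKN1C (p57), bind complexes of cyclins with CDKs and act most strongly on CDK2. In stratified epithelium, these proteins are known for their part in the exit from the cell cycle that goes with differentiation and senescence.

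Each library held 16542243 to 19040964 counts. Replicate B of the control at 48 h stood apart from the other libraries. Its counts differed from those of replicates A and C with chi-squares per degree of freedom of 20.9 and 23.9, while all other pairs of replicates had between 3.66 and 12.5. Mitochondrially encoded genes took 1.55% of its counts, against 0.906% and 0.707% in replicates A and C, so results at 48 h are given with and without it. The summed level of 10 keratinocyte markers lay between 43940 and 56000 CPM (counts scaled to a common library size) in all libraries. The melanocyte marker TYR and the leukocyte marker LYZ had 0 counts in all 12 libraries. In the same lists, the melanocyte marker PMEL had 17 to 53 counts and the leukocyte marker CD14 had 16 to 60 counts in a library. Among 7 fibroblast markers, COL1A2, COL3A1, and PDGFRA had at most 5 counts in any library, but DCN reached 1468 counts and COL1A1 reached 515 counts.

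All 7 genes were expressed, and all passed the filter on low counts in each comparison. Levels were compared between genes as RPKM, the CPM per kilobase of exonic length (mean ± SD, n = 3). CDKN2A was the highest member in all 4 groups. It had 101 ± 2.71 RPKM in the control at 24 h, 99.0 ± 4.91 with Arg at 24 h, 92.4 ± 6.11 in the control at 48 h, and 88.0 ± 4.13 with Arg at 48 h. Its libraries did not overlap with those of the next gene in any group. CDKN2A alone made up between 38.9% and 56.3% of the summed RPKM of the 7 genes in a library. Its row pools the transcripts for p16INK4A and for p14ARF, which does not act on CDKs, and the gene counts do not separate them.
The order below CDKN2A differed between the groups, and the shifts of CDKN1C in it follow in part from the choice of that gene. In the control at 24 h, CDKN1C came next with 41.7 ± 1.87 RPKM, followed by CDKN1A with 25.9 ± 1.26 and CDKN1B with 17.1 ± 0.960, without overlap between neighbors. With Arg at 24 h, CDKN1A (27.5 ± 1.56 RPKM) and CDKN1B (21.1 ± 2.18 RPKM) lay above CDKN1C (14.1 ± 2.53 RPKM), again without overlap. At 48 h, CDKN1C had 54.5 ± 30.7 RPKM in the control, where its range overlapped with that of CDKN1A (37.6 ± 5.85). With Arg at 48 h, it had 19.9 ± 1.36 RPKM and overlapped with CDKN1B (18.8 ± 0.838). CDKN2B, CDKN2C, and CDKN2D were the lowest 3 members in each group, with means between 4.02 and 12.8 RPKM.

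**Figure D1:**
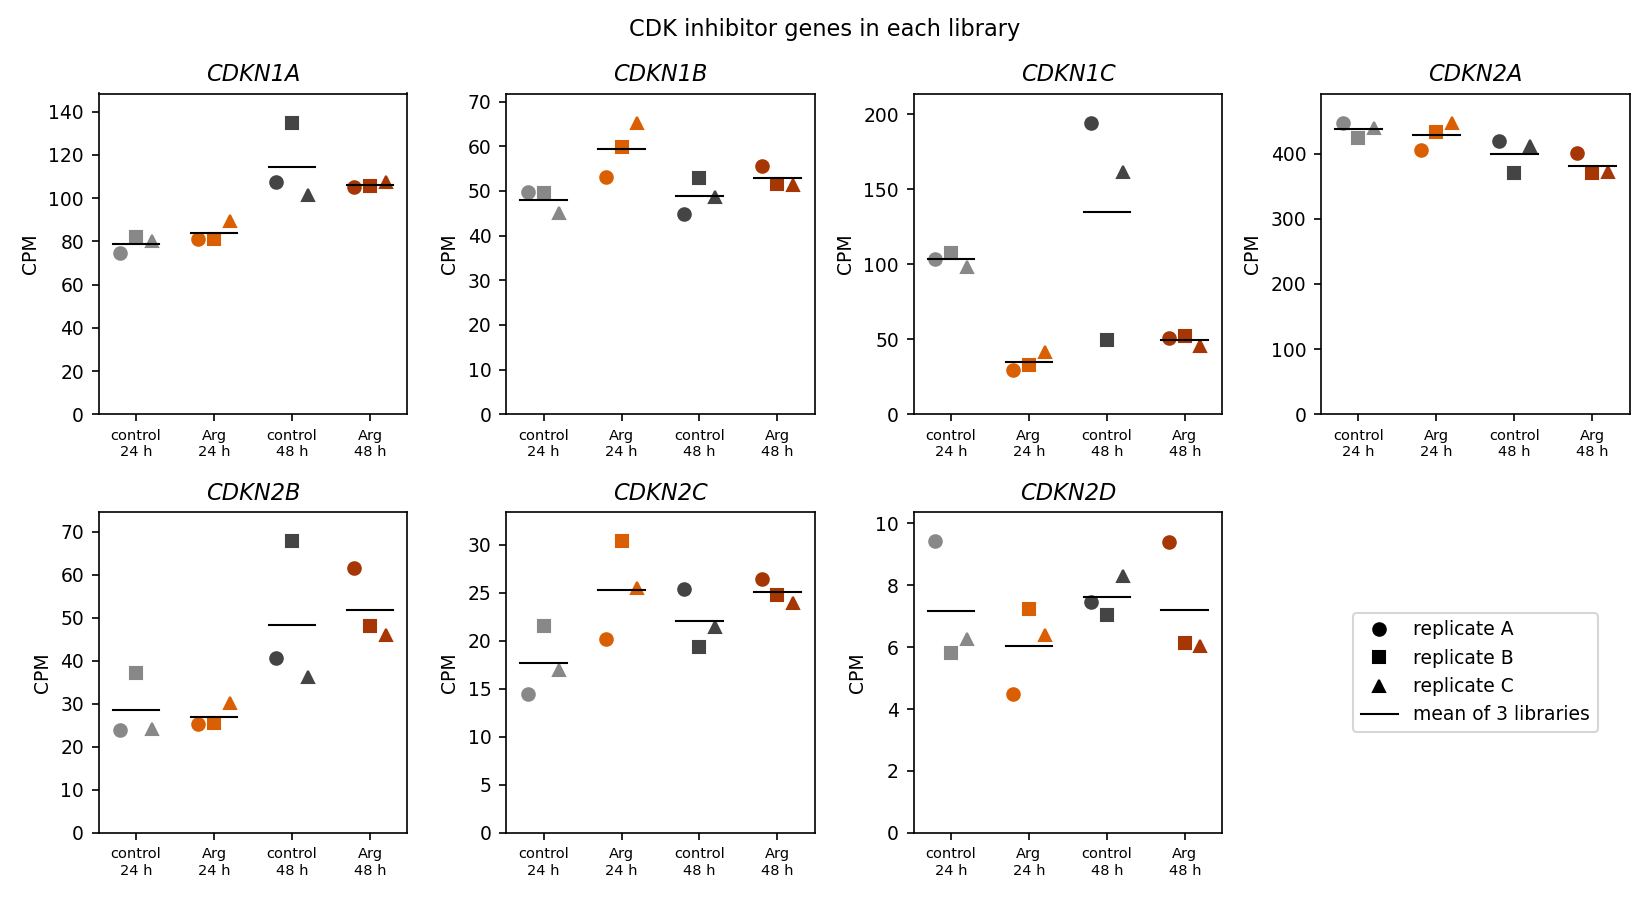
Level of each CDK inhibitor gene in each of the 12 libraries, in CPM on a linear axis that starts at 0 and has its own range for each gene. Symbols mark the replicate letter and the line is the mean of 3 libraries. In CDKN1C, the 3 control libraries at 24 h lie between 98.5 and 108 CPM and the 3 Arg libraries between 29.7 and 41.8 CPM, while replicate B of the control at 48 h (49.2 CPM) lies among the Arg libraries.

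CDKN1C (ENSG00000129757) encodes p57. It lies on chromosome 11 of GRCh38 from 2883213 to 2885773, on the minus strand, in the imprinted region at 11p15.5. It is expressed mainly from the maternal allele. In the control at 24 h, CDKN1C had 103, 108, and 98.5 CPM in replicates A, B, and C. In the Arg group at 24 h, it had 29.7, 33.0, and 41.8 CPM. All Arg libraries were therefore lower than all control libraries, as the choice of the gene fixed. The log2 fold change was −1.57 (standard error (SE) 0.11), a level 2.96-fold lower with Arg. In bulk RNA, fewer cells with the transcript and less transcript per cell cannot be told apart.
At 48 h, the control had 194, 49.2, and 161 CPM of CDKN1C, and the Arg group had 50.7, 51.9, and 45.6 CPM. Replicates A and C of the control were above all Arg libraries, but replicate B lay inside the Arg range, so the groups overlapped. Arg against control gave a log2 fold change of −1.45 (SE 0.34) with all libraries and −1.85 (SE 0.077) without control replicate B. The share of mitochondrially encoded genes also differed between the groups. At 24 h, it was 1.20% to 1.30% in the control and 0.624% to 0.802% with Arg, and at 48 h it was 1.14% to 1.31% with Arg. Among the fibroblast markers, which summed to between 34.2 and 54.4 CPM in the control and between 30.2 and 41.4 CPM with Arg at 24 h, DCN also fell with Arg (log2 fold change −0.70, SE 0.18, adjusted p = 0.0294 from edgeR, passing in 2 of the 6 fits that left out a library). DCN was the only 1 of the 4 tested fibroblast markers that passed at 24 h, and their median log2 fold change was −0.062. COL1A1 had a log2 fold change of 0.062 (SE 0.15, adjusted p = 0.853 from edgeR). The part of these measures in the values of CDKN1C was not tested.
The level of CDKN1C at 48 h was also set against that at 24 h. With Arg, all 3 libraries at 48 h were above all 3 at 24 h (log2 fold change 0.50, SE 0.11), and 42.2% of all tested genes did not overlap. In the control, the log2 fold change from 24 to 48 h was 0.39 (SE 0.33), and it was 0.79 (SE 0.088) without replicate B. Over both times, the Arg libraries stayed between 29.7 and 51.9 CPM, and the control libraries other than replicate B at 48 h stayed between 98.5 and 194 CPM. The difference between the Arg effects at 48 and 24 h was 0.11 on the log2 scale (SE 0.40), and it turned to −0.28 without that replicate.

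The make-up of the CIP/KIP transcripts differed with the level of CDKN1C. CDKN1C enters each share and sum, so these differences follow in part from the choice of that gene and are no separate result. CDKN1C held 49.7%, 49.4%, and 48.5% of the summed CIP/KIP RPKM in control replicates A, B, and C at 24 h. With Arg at 24 h, it held 20.9%, 21.8%, and 24.3%. CDKN1A was then the largest of the 3, with 42.2% to 46.3%. At 48 h, the CDKN1C share was 60.5%, 24.0%, and 56.3% in control replicates A, B, and C and between 25.6% and 28.3% with Arg. In replicate B, CDKN1A held 53.3%, the highest share of CDKN1A in any library. The summed CIP/KIP level was 82.0 to 88.1 RPKM in the control and 57.4 to 69.4 RPKM with Arg at 24 h. At 48 h, it was 130, 82.9, and 116 RPKM in control replicates A, B, and C and 71.9 to 74.8 RPKM with Arg.

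**Figure D2:**
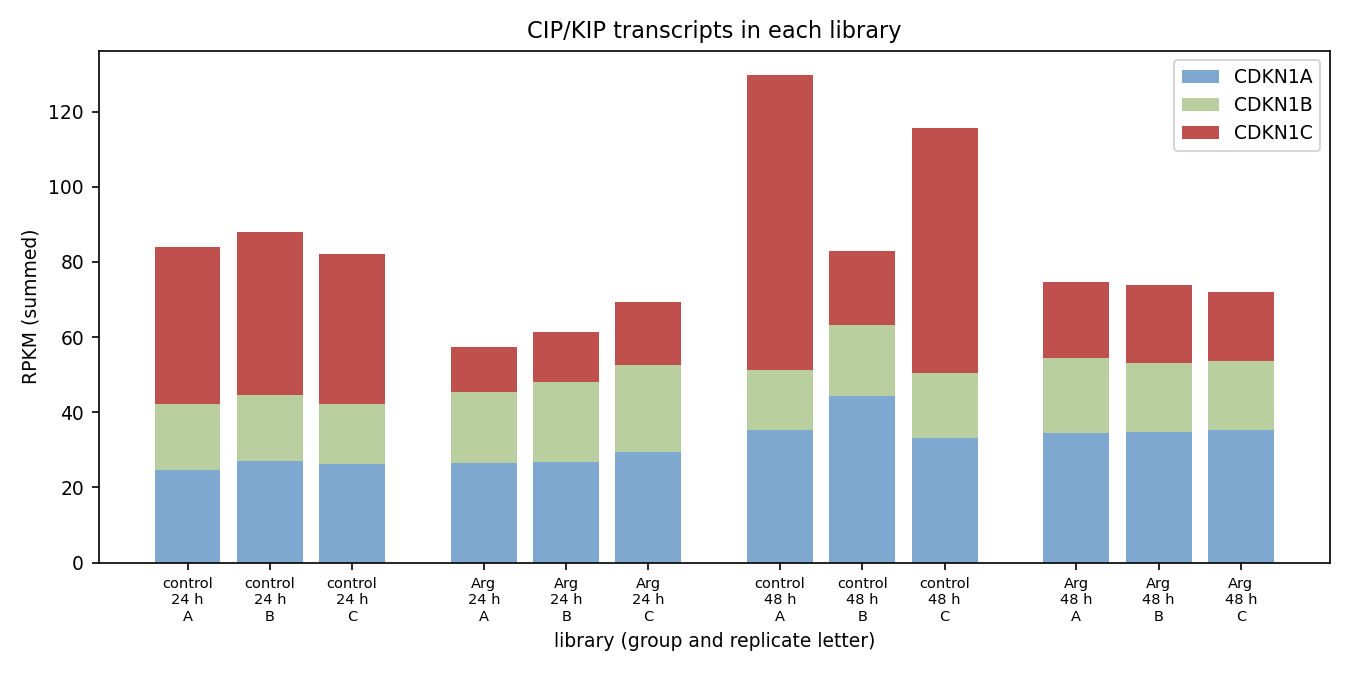
Summed RPKM of the CIP/KIP genes in each library, stacked as CDKN1A, CDKN1B, and CDKN1C on a linear axis that starts at 0. CDKN1C holds 48.5% to 49.7% of the bar in the control at 24 h and 20.9% to 24.3% with Arg at 24 h, and replicate B of the control at 48 h (24.0%) resembles the Arg libraries. These differences follow in part from the choice of CDKN1C.

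The other CDK inhibitor genes were tested to ask whether they differed with Arg as well. At 24 h, 0 of the other 6 members passed an adjusted p of 0.05 in edgeR's quasi-likelihood test, where 6.63% of the 14279 tested genes passed. At an unadjusted p under 0.05, CDKN1B and CDKN2C passed, and 22.8% of all genes did. DESeq2 called 1 of the 6, CDKN2C. CDKN1B, which encodes the p27 inhibitor of CDK2 complexes, had 49.7, 49.5, and 45.0 CPM in the control and 53.1, 59.8, and 65.3 CPM with Arg. Its groups did not overlap, as in 26.2% of all tested genes. The log2 fold change was 0.30 (SE 0.097, adjusted p = 0.0702 from edgeR), and it passed without Arg replicate A (0.37, adjusted p = 0.0282).
CDKN2C, which encodes an inhibitor of CDK4 and CDK6, had 14.5, 21.5, and 16.9 CPM in the control and 20.1, 30.4, and 25.5 CPM with Arg. Control replicate B was above Arg replicate A, so the groups overlapped. Its log2 fold change was 0.52 (SE 0.16, adjusted p = 0.0556 from edgeR). It passed without control replicate B (adjusted p = 0.00778) and without Arg replicate A (adjusted p = 0.0213), and it did not pass in the other 4 fits that left out a library, where the adjusted p reached 0.280. CDKN1A, CDKN2A, CDKN2B, and CDKN2D had log2 fold changes of 0.086, −0.029, −0.075, and −0.25 at 24 h, with SEs between 0.074 and 0.23 and adjusted p-values between 0.545 and 0.853 from edgeR.
At 48 h, 0 of the 6 passed at an adjusted p of 0.05, where 0.117% of 14562 genes passed. At an unadjusted p under 0.05, 0 of the 6 passed in edgeR, where 13.4% of all genes did, and DESeq2 called 0. The groups overlapped for all 6, while they did not overlap in 17.1% of all genes. Their log2 fold changes lay between −0.11 for CDKN1A and 0.18 for CDKN2C. Control replicate B decided the value of CDKN2B. This gene had 40.7, 67.9, and 36.3 CPM in control replicates A, B, and C and 61.7, 48.1, and 46.0 CPM with Arg. The log2 fold change was 0.10 (SE 0.19, adjusted p = 0.850 from edgeR) with all libraries. Without control replicate B, it was 0.43 (SE 0.11, adjusted p = 0.00635), and CDKN2B was then the single member that passed. In that fit, 1152 of 14854 genes were higher and 1213 were lower with Arg, so such a call was common. The difference of the Arg effects between the times passed for 0 of the 6 members (0.0132% of 15148 genes passed), with 0 at an unadjusted p under 0.05 (6.87% of all genes) and adjusted p-values of at least 0.817 in edgeR's interaction test.

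**Figure D3:**
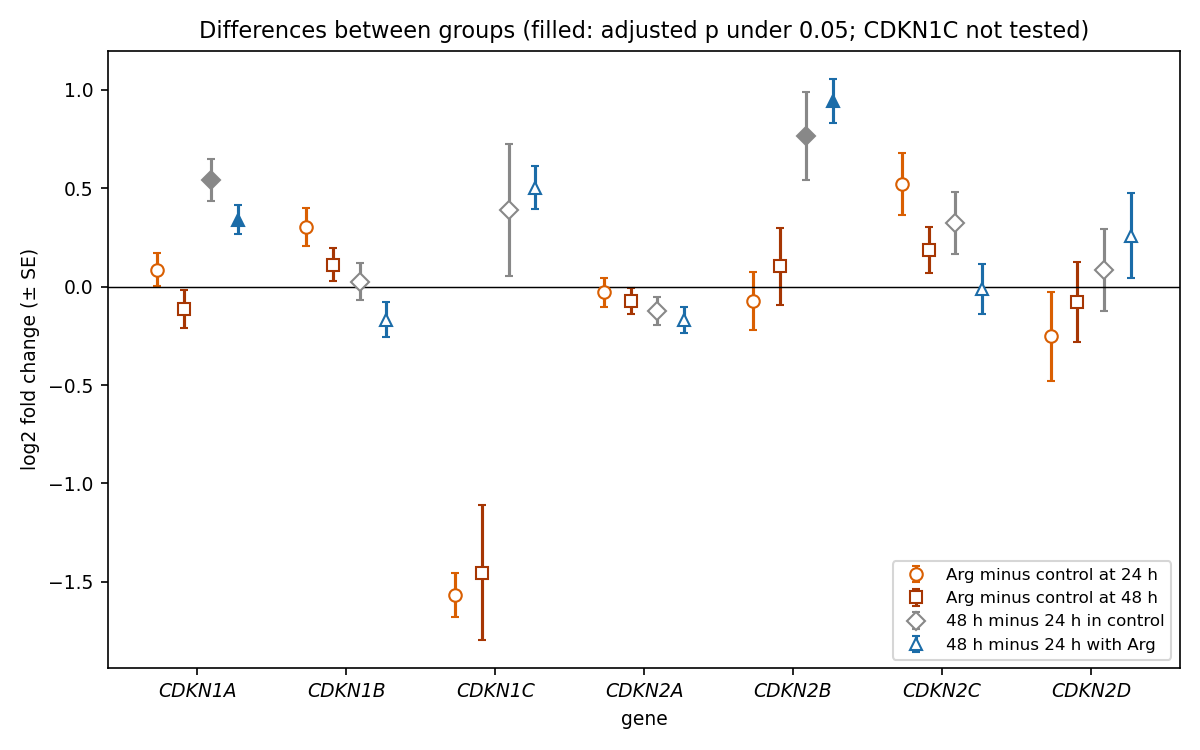
Log2 fold changes with SEs (bars) of the CDK inhibitor genes in 4 comparisons, each fitted with edgeR on 6 libraries. Filled symbols have an adjusted p under 0.05, and CDKN1C is drawn open because it was not tested. CDKN1C lies at −1.57 and −1.45 for Arg against control, and CDKN1A and CDKN2B are filled in both comparisons of 48 h with 24 h.

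Between 24 and 48 h, CDKN1A and CDKN2B rose in the control and with Arg. These were 2 of the other 6 members in each condition, where 9.90% of 14449 genes rose in the control and 14.3% of 14398 genes rose with Arg. The other 4 tested members did not pass in either condition. CDKN1A (ENSG00000124762, chromosome 6, 36676460 to 36687339, plus strand) encodes p21, an inhibitor known to be induced by DNA damage. CDKN2B (ENSG00000147883, chromosome 9, 22002903 to 22009363, minus strand) encodes p15, which is known to be induced by TGF-β. Their promoters are shown because these were the members that rose in both conditions. The sequences are the 250 bases before the start site in RefSeq (GRCh38.p14), chr6:36678464-36678713 on the plus strand and chr9:22009306-22009555 on the minus strand, written 5′ to 3′ along the gene. Capitals mark the GC box letters GGGCGG on either strand, and neighboring matches may share bases.
CDKN1A: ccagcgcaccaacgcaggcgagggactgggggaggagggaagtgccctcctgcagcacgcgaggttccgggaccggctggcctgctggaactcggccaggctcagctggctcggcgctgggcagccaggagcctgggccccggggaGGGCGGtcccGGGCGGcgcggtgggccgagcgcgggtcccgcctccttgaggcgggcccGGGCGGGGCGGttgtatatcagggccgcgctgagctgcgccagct
CDKN2B: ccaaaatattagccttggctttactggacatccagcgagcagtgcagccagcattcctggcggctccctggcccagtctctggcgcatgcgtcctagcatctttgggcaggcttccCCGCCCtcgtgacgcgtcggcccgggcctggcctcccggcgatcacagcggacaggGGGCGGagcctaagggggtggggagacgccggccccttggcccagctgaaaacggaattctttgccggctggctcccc
The CDKN1A stretch held 4 GC boxes and the CDKN2B stretch held 2. At least 1 GC box was found in 42.6% of the 35116 RefSeq promoters of this length. Neither stretch held the TATA letters TATAAA (10.7% of promoters) or the E box CACGTG (6.35% of promoters) on either strand. The GC content was 76.4% for CDKN1A and 66.4% for CDKN2B, against a median of 58% over all promoters. It was 64.4% for CDKN1B, 66.8% for both CDKN2A promoters, and 67.6% for CDKN2D. The CDKN2C promoters had 45.6%, 77.2%, and 48.8%. The promoters of these members held between 0 and 5 GC boxes, so high GC content was not particular to the members that rose. RefSeq promoters were found for all members but CDKN1C.

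CDKN1A had 74.7, 82.2, and 80.1 CPM in the control at 24 h and 108, 135, and 101 CPM at 48 h. With Arg, it had 81.0, 81.3, and 89.4 CPM at 24 h and 105, 106, and 108 CPM at 48 h. All libraries at 48 h were above all libraries at 24 h in both conditions, as the groups did not overlap in 39.0% of genes in the control and 42.2% with Arg. Its log2 fold change was 0.54 in the control (SE 0.11, adjusted p = 0.00619 from edgeR) and 0.34 with Arg (SE 0.073, adjusted p = 0.00158). It passed in all 6 fits that left out a library in each condition, and without control replicate B at 48 h it was 0.41 in the control (adjusted p = 0.00496). The long noncoding gene DINOL, which overlaps CDKN1A on the opposite strand, had 1 count over all libraries, but whether the counting used strand is not known.
CDKN2B had 24.0, 37.2, and 24.2 CPM in the control at 24 h and 40.7, 67.9, and 36.3 CPM at 48 h. Replicate B was the highest at both times, and replicate C at 48 h was just below replicate B at 24 h, so the groups overlapped. The log2 fold change was 0.76 (SE 0.22, adjusted p = 0.0327 from edgeR), and DESeq2 did not call it (adjusted p = 0.112). It was also lost without control replicate A at 24 h (0.65, adjusted p = 0.150), without replicate C at 24 h (0.66, adjusted p = 0.143), and without replicate B at 48 h (0.44, adjusted p = 0.0766). With Arg, CDKN2B had 25.3, 25.6, and 30.2 CPM at 24 h and 61.7, 48.1, and 46.0 CPM at 48 h. These groups did not overlap, as in 42.2% of all tested genes. The log2 fold change was 0.94 (SE 0.11, adjusted p = 4.58e-06 from edgeR), with adjusted p-values up to 6.13e-05 when a library was left out. The rise with Arg was thus clear of the spread between libraries, while that in the control rested on single libraries.
CDKN2A (ENSG00000147889), the neighbor of CDKN2B at 9p21 on the minus strand of chromosome 9 from 21967753 to 21995301, did not rise. It had 437 ± 11.7 CPM in the control at 24 h and 400 ± 26.4 CPM at 48 h (SD, n = 3). The log2 fold change was −0.13 (SE 0.071, adjusted p = 0.242 from edgeR). With Arg, it had 429 ± 21.3 and 381 ± 17.9 CPM, with a log2 fold change of −0.17 (SE 0.066, adjusted p = 0.0629). In both conditions, all libraries at 48 h were below all libraries at 24 h. The groups did not overlap in 39.0% of all tested genes in the control and 42.2% with Arg. DESeq2 called the difference with Arg (adjusted p = 0.0335), and edgeR did so without Arg replicate A at 24 h (adjusted p = 0.0143) or without Arg replicate A at 48 h (adjusted p = 0.0495). The antisense gene CDKN2B-AS1 overlaps both genes and had 113 counts over all libraries, against 89497 for CDKN2A and 8521 for CDKN2B, with the same limit on strand. MTAP, the adjacent gene for a methionine salvage enzyme, fell between 24 and 48 h in the control (log2 fold change −0.56, SE 0.12, adjusted p = 0.00867), but not without control replicate A or C at 24 h (adjusted p up to 0.0553).
The other 3 members had smaller or less certain differences with time. CDKN1B (ENSG00000111276, chromosome 12, 12715058 to 12722371) had log2 fold changes of 0.025 (SE 0.093) in the control and −0.17 (SE 0.088, adjusted p = 0.171) with Arg, and the latter passed without Arg replicate A at 24 h (−0.25, adjusted p = 0.0313). CDKN2C (ENSG00000123080, chromosome 1, 50960745 to 50974633) had 0.32 (SE 0.16, adjusted p = 0.171) and −0.012 (SE 0.12), and the former passed without control replicate B at 24 h (0.49, adjusted p = 0.0431). CDKN2D (ENSG00000129355, chromosome 19, 10566462 to 10569059), with 80 to 180 counts in a library the least counted member, had 0.087 (SE 0.21) and 0.26 (SE 0.22).
Other measures moved with time beside CDKN1A and CDKN2B. The 7 fibroblast markers summed to between 30.2 and 54.4 CPM at 24 h and between 72.7 and 102 CPM at 48 h. Among these, COL1A2, COL3A1, and PDGFRA had at most 5 counts in any library. In each condition, 4 were tested, of which 2 rose and 2 did not pass, where 9.90% of all tested genes rose in the control and 14.3% with Arg. DCN rose by 1.08 on the log2 scale in the control and by 1.61 with Arg, and COL1A1 rose by 0.97 and 0.80 (adjusted p at most 0.00293 from edgeR). The 4 endothelial markers summed to between 0.757 and 3.01 CPM at 24 h and between 4.09 and 6.42 CPM at 48 h, with CDH5 at no more than 3 counts and PECAM1 at no more than 10 counts in a library. VWF reached 32 counts and KDR reached 94 counts. The mitochondrial share with Arg was 0.624% to 0.802% at 24 h and 1.14% to 1.31% at 48 h. The part of these measures in the rise of CDKN1A and CDKN2B was not tested.

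The kinases and cyclins that these proteins bind were read beside them. Of 12 CDK and cyclin genes, 0 passed for Arg against control at 24 h and 0 at 48 h in edgeR's test, and DESeq2 called 2 as higher at 24 h. Without control replicate B, 2 were higher and 1 was lower at 24 h, and 0 were higher and 2 were lower at 48 h. That fit at 48 h gave 1152 higher and 1213 lower of 14854 genes. Their median log2 fold change was 0.12 at 24 h and 0.0054 at 48 h, against 0.0030 and 0.0018 over all genes. Between 24 and 48 h, 6 of the 12 fell in the control, where 10% of all tested genes fell (1451 of 14449), and 9 fell with Arg, where 14% did (2012 of 14398), and 0 rose (medians −0.26 and −0.30, against 0.012 and 0.00092 over all genes). The 6 falls in the control became 3 without control replicate A at 24 h. CDK6, a target of the INK4 proteins, had 167 ± 17.3 CPM at 24 h and 101 ± 5.49 CPM at 48 h in the control, a log2 fold change of −0.72 (SE 0.089, adjusted p = 0.00126). With Arg, its log2 fold change was −0.50 (SE 0.072, adjusted p = 3.95e-05). CCND2, which encodes a D-type cyclin, fell by 1.52 (SE 0.32) and 1.15 (SE 0.33) on the log2 scale, and the latter was lost without Arg replicate B at 24 h (adjusted p = 0.0989). All genes of this list that passed over time thus fell, while CDKN1A and CDKN2B rose.
Of 13 genes for pocket proteins and E2F factors, which act downstream of the CDKs, E2F2 rose with Arg at 24 h (12.9 ± 0.209 to 22.0 ± 0.463 CPM, log2 fold change 0.77, SE 0.12, adjusted p = 0.00078). With all libraries, no other gene of that list passed in edgeR's test, and 2.79% of all tested genes were higher and 3.84% lower in this comparison. Of 12 genes for ubiquitin ligases that mark CIP/KIP proteins for degradation, SKP2 rose with Arg at 24 h. SKP2, the subunit that recognizes p27 and also p57 and p21, had 270, 297, and 274 CPM in the control and 409, 389, and 361 CPM with Arg. Its log2 fold change was 0.46 (SE 0.078, adjusted p = 0.00164), and it passed in all 6 fits that left out a library. For Arg against control at 48 h, SKP2 had a log2 fold change of 0.29 (SE 0.085, adjusted p = 0.201 from edgeR) and did not pass. All its Arg libraries were above all control libraries, while 17.1% of all tested genes did not overlap. Without control replicate B, 1 of the 12 ligase genes was higher and 2 were lower at 48 h, beside 1152 and 1213 of 14854 genes. From 24 to 48 h with Arg, SKP2 fell by 0.23 on the log2 scale (SE 0.066, adjusted p = 0.0134), but not without Arg replicate B or C at 48 h (adjusted p up to 0.0656). CKS1B, its cofactor, had a log2 fold change of 0.11 with Arg at 24 h (adjusted p = 0.415). From 24 to 48 h, CKS1B fell with Arg (−0.26, SE 0.065, adjusted p = 0.00516 from edgeR), in all 6 fits that left out a library. In the control, its log2 fold change was −0.16 (adjusted p = 0.181). MDM2, which encodes another ubiquitin ligase, had log2 fold changes of −0.17 (adjusted p = 0.163) in the control and 0.042 (adjusted p = 0.740) with Arg from 24 to 48 h.

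CDKN1C was set beside the other genes of its chromosome band at 11p15.5, where imprinting is known to act over 2 neighboring domains. At 24 h, 13 of 18 listed genes were tested, of which 3 rose and 1 fell with Arg, where 2.79% of all tested genes rose and 3.84% fell. The 3 that rose became 0 without Arg replicate C and 1 without control replicate A, control replicate C, or Arg replicate B. IGF2, the growth factor of the other imprinted domain, rose from 2.38, 3.28, and 1.80 CPM to 4.55, 6.29, and 7.26 CPM (log2 fold change 1.28, SE 0.26, adjusted p = 0.00727 from edgeR). The noncoding gene H19 rose by 0.62 (SE 0.15, adjusted p = 0.0176) and OSBPL5 by 0.98 (SE 0.26, adjusted p = 0.0306) on the log2 scale. These calls depended on single libraries, since IGF2 was lost without Arg replicate C (adjusted p = 0.0542), and H19 and OSBPL5 each passed in 2 of the 6 fits that left out a library, while DESeq2 did not call H19. PHLDA2, a growth-restraining gene that lies beside CDKN1C and is likewise expressed from the maternal allele, fell from 57.7 ± 5.17 to 40.7 ± 0.941 CPM. Its log2 fold change was −0.51 (SE 0.094, adjusted p = 0.00388), and it passed in all 6 fits. KCNQ1OT1, the noncoding RNA known to silence CDKN1C on the paternal copy, had 1.39 to 2.71 CPM in the control and 1.28 to 1.94 CPM with Arg (log2 fold change −0.32, adjusted p = 0.642). KCNQ1OT1 lies within KCNQ1 on the opposite strand. Because the strand setting of the counting is not given in the sources used here, the reads of such pairs may not have been separated. At 48 h, 0 of 14 tested genes passed for Arg against control. Without control replicate B, 1 was higher and 1 was lower, beside 1152 and 1213 of 14854 genes.

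The 5 genes with the profile most like CDKN1C over the 12 libraries were GCNT3, AQP3, DUSP1, SNPH, and AC004951.2. Each profile was the log2 CPM minus its own mean, and likeness was the root-mean-square difference between profiles. This difference was 0.35 for GCNT3, 0.37 for AQP3, 0.38 for DUSP1, 0.38 for SNPH, and 0.41 for AC004951.2, against a median of 0.90 over 15147 genes. AQP3, which encodes a water and glycerol channel of the basal epidermis, had 257, 226, and 188 CPM in the control and 47.7, 47.8, and 57.4 CPM with Arg at 24 h. At 48 h, it had 190, 86.7, and 172 CPM in the control and 73.7, 65.8, and 68.0 CPM with Arg. DUSP1, which encodes a phosphatase of MAP kinases, had 287, 164, and 289 CPM in the control at 48 h and 138, 122, and 125 CPM with Arg. In both genes, replicate B of the control at 48 h was thus the lowest control library and lay above the Arg libraries. The 5 genes were picked by their likeness to CDKN1C in these same libraries, so patterns shared with it follow from that choice. GCNT3, SNPH, and AC004951.2 had at most 51 counts in a library, so their profiles are imprecise. Without control replicate B at 48 h, 4 of the 5 genes remained the nearest, with DUSP10 in place of SNPH. By Spearman's rho in place of the difference, 2 of the 5, GCNT3 and SNPH, remained.

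**Figure D4:**
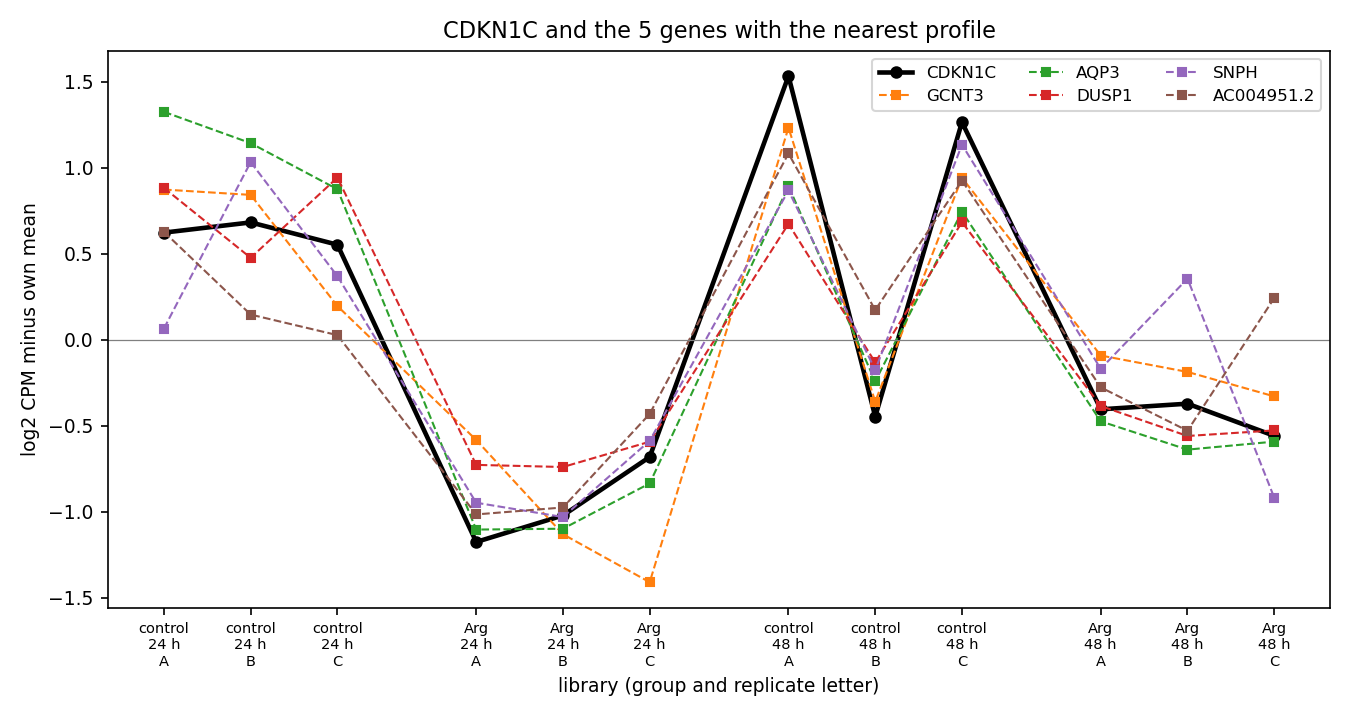
Log2 CPM minus the gene's own mean for CDKN1C (thick line) and the 5 genes with the nearest profile in the 12 libraries, grouped by condition. Lines join libraries only to guide the eye. All 6 genes are lower in the 3 Arg libraries at 24 h than in the 3 controls, and in all 6 the control replicate B at 48 h lies below replicates A and C. The 5 genes were picked for their likeness to CDKN1C in these same libraries, so the shared pattern follows from the choice.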

How the data were processed

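The study extracted total RNA of TIGK cells and describes its sequencing of the 12 libraries as poly(A) RNA sequencing. The authors filtered paired-end reads with fastp and mapped these with STAR to GRCh38/hg38. Gene counts were then made with featureCounts. The deposited values are raw read counts without normalization, beside each gene's coordinates and exonic length. The tool versions, the annotation release, and the strand setting are not given in the sources used here. The methods name DESeq2, a Benjamini–Hochberg adjustment, and a p under 0.05. Here, DESeq2 at an unadjusted p under 0.05 gave 1367 genes higher and 1597 lower with Arg at 24 h. At 48 h, it gave 762 higher and 990 lower. The paper reports these same counts, so its threshold was applied to the unadjusted p. All 12 count columns were used, and 0 were left out.

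Groups follow the treatment and time in the labels. Each pair of groups was compared on its 6 libraries with edgeR 4.0.16 in R 4.3.3 (TMM, its own low-count filter, and the quasi-likelihood test). The difference of the Arg effects was tested in a model of all 12 libraries. Adjusted p-values are those of Benjamini and Hochberg, taken over every gene of a test. CPM used TMM over the 12 libraries, and log2 CPM used a prior count of 2. The SE is the absolute log2 fold change divided by the square root of the F statistic. With 3 libraries a group, not stated to come from separate experiments, p-values measure the spread between these libraries.

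The members and the gene lists were chosen with earlier results of these data known, so list counts are descriptions. The genes named are the 7 members, genes that overlap them, the 5 nearest to CDKN1C, KCNQ1OT1, CDKN2B-AS1, MTAP, PHLDA2, SKP2, CKS1B, and MDM2, and at most 4 genes of a list with the largest changes among those with an adjusted p under 0.05. DUSP10 and single cell type markers were named after their values were seen. Each result was also computed with DESeq2 1.42.0, with its size factors in edgeR, with library size only, without the filter, with a minimum of 10 counts in each library, in a model of 12 libraries, with the replicate block, and without each library in turn. For genes of the lists, this was done after seeing the data. The code was tested on simulated counts. Some genes of the lists are not reported here.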

Additional observations from a re-analysis of the deposited data

How the results depend on the processing

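CDKN1C kept its direction in Arg against control at both times under all alternatives, with log2 fold changes between −1.72 and −1.47 at 24 h and between −1.85 and −1.09 at 48 h when a library was left out. The direction at 24 h was fixed by the choice of the gene, so keeping it is no support for a difference. The other 6 members gave 0 calls for Arg at 24 h, but 1 call, CDKN2C, without a filter on low counts, with DESeq2, with all 12 libraries in 1 model, and with the replicate block. For the rise with time in the control, DESeq2 gave 1 call in place of 2. With a library left out, the number of calls ranged from 0 to 2 and from 0 to 1 for Arg at 24 and 48 h, from 1 to 3 and from 2 to 4 for time in the control and with Arg, and stayed at 0 for the difference of the Arg effects. By Spearman's rho, 2 of the 5 genes nearest to CDKN1C were shared.

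Same-lettered libraries did not deviate together (r across genes between −0.061 and 0.038, and 0.13 for replicate B of the control at 24 and 48 h), so the replicate block is given only here. Besides CDKN2C at 24 h (adjusted p = 0.0137), it changed no call of a member. For CDKN2C from 24 to 48 h with Arg, the sign turned with library size only (0.045) and with the replicate block (0.0025). The block and DESeq2 also raised the calls over all genes for Arg at 48 h from 0 higher and 17 lower to 43 and 141 and to 42 and 127, and leaving out control replicate B raised them to 1152 and 1213. For time in the control, the block raised the calls from 1431 higher and 1451 lower to 1969 and 2075. It lowered those for time with Arg from 2060 and 2012 to 1926 and 1853, and those for Arg at 24 h from 398 and 549 to 379 and 545. With a library left out, differences that did not pass turned their sign as follows, with the cause not tested. For Arg at 24 h, CDKN2A ranged from −0.062 to 0.0050 and CDKN2B from −0.19 to 0.16. For Arg at 48 h, CDKN1A ranged from −0.20 to 0.022, CDKN2B from −0.066 to 0.43, and CDKN2D from −0.33 to 0.035. Over time, CDKN1B ranged from −0.039 to 0.081 and CDKN2D from −0.051 to 0.33 in the control, and CDKN2C from −0.15 to 0.14 with Arg. For the difference of the Arg effects, CDKN1C ranged from −0.28 to 0.47, CDKN2B from −0.050 to 0.51, and CDKN2D from −0.076 to 0.32.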

Other observations

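Several genes of keratinocyte differentiation were higher at 48 h than at 24 h. Of 13 tested genes in each condition, 5 rose and 1 fell in the control, where 9.90% of all tested genes rose and 10% fell. With Arg, 7 rose and 3 fell, where 14.3% of all tested genes rose and 14% fell. The 5 in the control became 2 without control replicate A at 24 h. For Arg against control, 0 passed at either time in edgeR's test with all libraries, the filter on low counts, and no replicate block. Without control replicate B, 2 were higher and 0 were lower at 24 h, and 4 were higher and 2 were lower at 48 h. That fit at 48 h gave 1152 higher and 1213 lower of 14854 genes. KRT13, a keratin of the suprabasal layers of moist epithelium, had 771 ± 242 CPM at 24 h and 2139 ± 1144 CPM at 48 h in the control, with a log2 fold change of 1.48 (SE 0.30, adjusted p = 0.00700 from edgeR). It had 3458 CPM in control replicate B at 48 h, against 1527 and 1432 CPM in replicates A and C. Without that replicate, its log2 fold change was 0.94 (SE 0.16, adjusted p = 0.00246), and the call was lost without control replicate A at 24 h (adjusted p = 0.0517). With Arg, KRT13 rose from 1040 ± 261 to 2913 ± 99.6 CPM (log2 fold change 1.49, SE 0.11, adjusted p = 2.56e-08). KRT4, the keratin that pairs with KRT13, rose by 1.76 (SE 0.26) in the control and by 1.87 (SE 0.20) with Arg on the log2 scale, and passed in all fits that left out a library.

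Of 9 genes for FOXO, SMAD, and MIZ1 regulators of CDK inhibitor transcription, 2 rose and 1 fell in the control between 24 and 48 h, and 3 rose and 1 fell with Arg, beside the same shares of all genes. The 2 that rose in the control became 0 without control replicate A or C at 24 h or without control replicate C at 48 h, and 1 without control replicate A at 48 h. Of 9 Polycomb genes that act on the 9p21 locus, 0 rose and 2 fell in the control, where 10% of all tested genes fell. With Arg, 0 rose and 3 fell, where 14% of all tested genes fell. The 2 in the control became 0 without control replicate A or C at 24 h and 1 without any 1 of the control libraries at 48 h, with scaling by library size only, or with at least 10 counts in every library, and the 3 with Arg became 1 without Arg replicate C at 48 h. Of both lists, 0 genes passed for Arg against control at either time in edgeR's test with all libraries, while DESeq2 called 1 Polycomb gene higher at 24 h. Without control replicate B at 24 h, 1 gene of the FOXO, SMAD, and MIZ1 list was higher and 1 was lower, and 1 Polycomb gene was higher. Without control replicate B at 48 h, 1 gene of the FOXO, SMAD, and MIZ1 list was higher and 1 was lower, and 2 Polycomb genes were lower. That fit gave 1152 higher and 1213 lower of 14854 genes.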
